A study of Homo sapiens with 6 samples.

Results

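The genes described here are the parts of the Wnt signalling pathway that lie at and around the cell surface, together with the central intracellular components: the Wnt ligands, the genes for their secretion, the frizzled and LRP receptors, the secreted inhibitors, the R-spondins with their receptors and opposing ubiquitin ligases, beta-catenin with its scaffold proteins, and the TCF/LEF transcription factors. Members were taken by gene name from a fixed naming pattern and not by any measured value, and 63 of the 53492 genes in the tables matched. The pattern was set with earlier results of these data known. The libraries were made from polyadenylated RNA of cells labelled SH-SY5Y, a human neuroblastoma line with features of sympathetic neurons. Cells of 3 libraries were transfected with pCS2-eGFP-CCNB1IP1, a vector for green fluorescent protein (GFP) joined to CCNB1IP1, and cells of the other 3 with pCS2-eGFP-N, a vector for GFP, so both groups carried GFP. CCNB1IP1 (HEI10) binds cyclin B1, acts as a ubiquitin ligase and takes part in meiotic crossing over. The labels do not say what share of cells took up the vector, nor that replicates came from separate cultures, so p-values measure the spread between these libraries, which may be technical.

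Wnt proteins are lipid-modified secreted signals. Porcupine attaches the lipid and Wntless carries the protein to the surface, where it binds a frizzled receptor and, in the canonical branch, an LRP5 or LRP6 coreceptor. Binding stops the destruction complex of Axin, APC and kinases from marking beta-catenin for breakdown, and beta-catenin then joins TCF/LEF factors at target genes, among them the feedback inhibitors Axin2, Nkd1, Notum, Znrf3 and Rnf43. In the embryo the pathway acts in the induction of the neural crest, from which sympathetic neurons and neuroblastoma derive.

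All 53492 identifiers in the tables were of mouse, on 19 numbered chromosomes and the others, and 0 were found among human genes. H2-K1, a mouse gene of the major histocompatibility complex, stood at 354.8 to 405.7 FPKM over the 6 libraries, and the rodent-specific Rhox5 at 156.7 to 171.6 FPKM. All levels below are therefore those of mouse genes, although the labelled line is human. FPKM are fragments scaled by transcript length and library size, so levels can be compared between genes. The mouse gene Ccnb1ip1 had under 0.001, 0.133 and 0.191 FPKM in the GFP-CCNB1IP1 libraries, against 0.0334, 0.125 and 0.0698 FPKM in GFP libraries, and an introduced human sequence was not analysed here. These values do not check the labels, and the groups are named as labelled. Of 12 markers of noradrenergic sympathetic cells 10 had a mean of at least 1 FPKM; Dbh averaged 0.666 FPKM, Phox2a 106.0 FPKM, Hand2 122.5 FPKM and Stmn2 92.6 FPKM. Of 8 glial markers 2 had a mean of at least 1 FPKM, with Sox10 at 0.114 FPKM, and of 12 mesenchymal markers 4 did, with Col3a1 at 0 and Vim at 752.7 FPKM. The summed noradrenergic markers ranged from 849.4 to 940.3 FPKM in the GFP-CCNB1IP1 libraries and from 1022 to 1117 FPKM in the GFP libraries, without overlap; the glial sums (7.09 to 8.26 against 6.72 to 7.49 FPKM) and mesenchymal sums (803.5 to 890.0 against 752.2 to 826.2 FPKM) overlapped. The part of these marker levels in the results below was not tested. Read counts were not used here; read from the deposited confidence intervals, relative depth was 0.743 in GFP-CCNB1IP1 replicate 2 and 0.950 to 1.06 in the other 5 libraries, with the GFP mean at 1.

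Libraries of both groups had a high level of beta-catenin and of the antagonists Dkk1 and Dkk3. The coreceptor genes Lrp5 and Lrp6 averaged 11.6 and 14.3 FPKM. Frizzleds were led by Fzd6 and Fzd7, and ligands were at low levels, led by Wnt10b. Of the 63 members, 33 had a mean of at least 1 FPKM over the 6 libraries, the level from which genes were tested, or 52.4% against 24.7% of all 53492 genes. The other 30 did not, and 9.52% of members were at 0 in every library, against 50.3% of all genes. All genes listed were counted here whatever their class, so these shares do not compare the members with other protein-coding genes. Levels of 10 FPKM or more were found for 7 members, namely Ctnnb1, Dkk1, Dkk3, Axin1, Lrp6, Apc and Lrp5. The median of the 33 tested members was 3.09 FPKM, against 10.8 FPKM for the 13231 genes tested. No member passed the test between the groups (limma, adjusted over all genes, with 0.00756% of all genes called), so the differences given below are values with their errors and not calls.

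**Figure D1:**
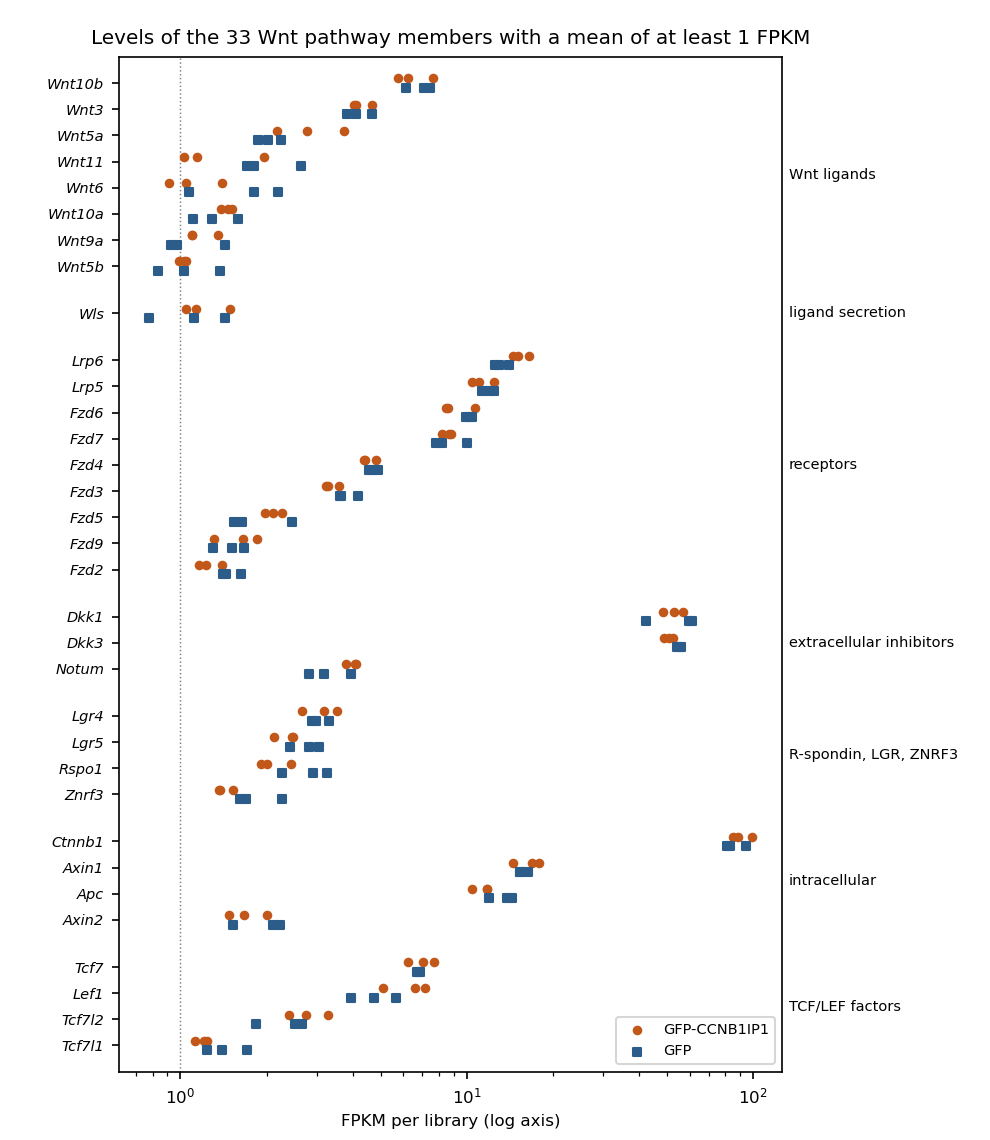
FPKM (log axis) of the 33 members with a mean of at least 1 FPKM, 1 point per library, circles for GFP-CCNB1IP1 and squares for GFP, ordered by role and level. Ctnnb1, Dkk1 and Dkk3 stand above the rest at 42.1 to 99.0 FPKM, and 8 ligands lie between 0.836 and 7.64 FPKM, with the groups close together in nearly every row.

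Among the 19 Wnt ligand genes, 8 were tested and 11 lay under 1 FPKM on average. Wnt10b, a ligand of the canonical branch, was the highest at 7.64, 6.22 and 5.76 FPKM in GFP-CCNB1IP1 libraries and 6.13, 7.47 and 7.09 FPKM in the GFP libraries. Wnt3, also canonical, followed at 3.83 to 4.69 FPKM over the 6 libraries, with no library reaching the lowest Wnt10b value. Wnt5a ranged from 1.86 to 3.73 FPKM, just under the lowest Wnt3 value of 3.83. Wnt11 and Wnt6 overlapped it, while all libraries of Wnt10a, Wnt9a and Wnt5b lay below its lowest value. Wnt11, Wnt6, Wnt10a, Wnt9a and Wnt5b overlapped each other at means of 1.05 to 1.72 FPKM, so the order among these 5 does not exceed their spread. The ligands summed to 23.1, 20.8 and 20.7 FPKM in the GFP-CCNB1IP1 libraries and 21.6, 24.1 and 21.1 FPKM in the GFP libraries, and these ranges overlapped.

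Wnt5a, which acts mainly through beta-catenin-independent branches, had 3.73, 2.77 and 2.17 FPKM in the GFP-CCNB1IP1 libraries and 2.25, 2.02 and 1.86 FPKM in the GFP libraries. Replicate 1 of GFP-CCNB1IP1 was the highest of the 6, and replicate 3 lay within the GFP range. The log2 fold change on the log2(FPKM + 1) scale, GFP-CCNB1IP1 over GFP, was 0.34 (SE 0.155, 95% interval -0.024 to 0.70; limma, adjusted p = 0.466). As a share of the summed ligand FPKM, a quantity chosen after its values were seen and not tested, Wnt5a made up 16.1, 13.3 and 10.5% in the GFP-CCNB1IP1 libraries and 10.4, 8.36 and 8.85% in the GFP libraries. Wnt11, known for directing cell movements in gastrulation, had 1.03, 1.15 and 1.97 FPKM in the GFP-CCNB1IP1 libraries and 1.80, 2.64 and 1.72 FPKM in the GFP libraries. A pair of GFP-CCNB1IP1 libraries lay below all GFP libraries and the remaining one did not (log2 fold change -0.37, SE 0.185, 95% interval -0.80 to 0.062; limma, adjusted p = 0.505). Wnt6 had 0.917, 1.40 and 1.05 FPKM in the GFP-CCNB1IP1 libraries and 1.81, 2.19 and 1.08 FPKM in the GFP libraries. Its groups overlapped through GFP replicate 3 (log2 fold change -0.33, SE 0.183; limma, adjusted p = 0.544). These 3 ligands had the farthest fold changes from 0 among the ligands, and the deposited intervals of Wnt5a and Wnt11 imply only 11.7 to 38.1 fragments a library. The other 5 tested ligands had log2 fold changes from -0.071 for Wnt10b to 0.079 for Wnt10a.

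Of the Wnt ligand genes, 8 lie as neighbouring pairs in the mouse genome, within 200 kb of each other, and their levels differed within 3 of the pairs. On chromosome 15, Wnt10b (98668593 to 98676031) averaged 6.72 FPKM and Wnt1 (98687738 to 98691718), 11.7 kb away, averaged 0.802 FPKM. On chromosome 11, Wnt3 (103664976 to 103708783) averaged 4.24 FPKM and Wnt9b, 24.3 kb away, 0.00724 FPKM. In the other pair of that chromosome Wnt9a averaged 1.15 FPKM and Wnt3a, 16.2 kb away, was listed at 0 in every library. On chromosome 1, Wnt6 and Wnt10a, 6.2 kb apart, averaged 1.41 and 1.39 FPKM. Coordinates are those of the tables, whose genome build no source used here gives.

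Of the genes for ligand release, Wls, which encodes the carrier Wntless, was tested and Porcn, which encodes the acyltransferase porcupine, was under the level for testing. Wls had 1.05, 1.49 and 1.13 FPKM in the GFP-CCNB1IP1 libraries and 1.43, 1.11 and 0.777 FPKM in the GFP libraries. Its groups overlapped widely, and its log2 fold change, 0.084 (SE 0.158; limma, adjusted p = 0.880), was below 0 when GFP-CCNB1IP1 replicate 2 (-0.0011) or GFP replicate 3 (-0.033) was left out. Porcn had 0.605, 0.727 and 0.704 FPKM in the GFP-CCNB1IP1 libraries and 0.803, 0.476 and 0.767 FPKM in the GFP libraries, with a lowest and a highest value both in the GFP group.

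The coreceptor gene Lrp6 had the smallest p-value of all members. LRP5 and LRP6 are single-pass receptors whose phosphorylated tails draw Axin to the membrane. Lrp6 (ENSMUSG00000030201.16, chromosome 6, 134423439 to 134543928) had 14.5, 16.5 and 15.1 FPKM in the GFP-CCNB1IP1 libraries and 14.1, 12.9 and 12.5 FPKM in the GFP libraries. All 3 GFP-CCNB1IP1 libraries lay above all 3 GFP libraries, with GFP-CCNB1IP1 replicate 1 and GFP replicate 1 close to each other. The log2 fold change was 0.21 (SE 0.074, 95% interval 0.036 to 0.38; limma, adjusted p = 0.357), which misses the threshold. Its relative Lrp5 averaged 11.3 ± 1.03 FPKM in the GFP-CCNB1IP1 libraries and 11.9 ± 0.574 FPKM in the GFP libraries (SD, n = 3; limma log2 fold change -0.073, SE 0.080, adjusted p = 0.769). Lrp6 made up 56.7, 57.0 and 59.2% of the summed Lrp5 and Lrp6 FPKM in the GFP-CCNB1IP1 libraries and 55.4, 50.9 and 51.1% in the GFP libraries, a share that was looked at after the values were seen and was not tested.

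The frizzled genes encode the receptors that bind Wnt proteins directly, and 7 of the 10 were tested. Their sum was 32.3, 30.2 and 30.1 FPKM in the GFP-CCNB1IP1 libraries and 30.9, 34.6 and 31.7 FPKM in the GFP libraries, with overlap. Fzd6 and Fzd7 led and overlapped each other, at 8.50 to 10.7 and 7.81 to 10.002 FPKM over the 6 libraries. Fzd6 made up 30.0 ± 2.74% of the sum in the GFP-CCNB1IP1 libraries and 31.5 ± 1.26% in the GFP libraries, and Fzd7 made up 27.7 ± 1.27% and 26.7 ± 1.91% in the same order (SD, n = 3 each). Fzd4, the receptor for Norrin as well as for Wnt proteins, came next at 4.37 to 4.88 FPKM. Fzd3, known for guiding axons and for planar cell polarity, lay below it at 3.24 to 4.19 FPKM. Fzd5, Fzd9 and Fzd2 overlapped in turn at means of 2.00, 1.55 and 1.38 FPKM. Fzd1 averaged 0.143 FPKM, and Fzd8 and Fzd10 were above 0.001 FPKM in 1 library each.

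Fzd3 had 3.24, 3.27 and 3.57 FPKM in the GFP-CCNB1IP1 libraries and 4.19, 3.64 and 3.61 FPKM in the GFP libraries. Its groups did not overlap, by a margin smaller than the spread within either group (log2 fold change -0.14, SE 0.093, 95% interval -0.36 to 0.075; limma, adjusted p = 0.617). Fzd2 also did not overlap, at 1.40, 1.23 and 1.16 FPKM in GFP-CCNB1IP1 libraries and 1.41, 1.63 and 1.44 FPKM in the GFP libraries (limma, adjusted p = 0.693). For the other 5 tested frizzleds the groups overlapped, with log2 fold changes from -0.127 for Fzd6 to 0.127 for Fzd5.

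The secreted inhibitors were dominated by the Dickkopf genes Dkk1 and Dkk3, and the 4 Sfrp genes that matched, which encode frizzled-like decoys, were all under 1 FPKM on average. DKK1 blocks LRP5 and LRP6. Dkk1 (ENSMUSG00000024868.9, chromosome 19, 30523263 to 30527065) had 48.5, 53.0 and 56.7 FPKM in the GFP-CCNB1IP1 libraries and 59.8, 42.1 and 61.0 FPKM in the GFP libraries. The 3 GFP-CCNB1IP1 values fell inside the GFP range, which GFP replicate 2 widens at its lower end. The difference was -0.025 on the log2 scale (SE 0.137, 95% interval -0.34 to 0.29; limma, adjusted p = 0.969). DKK3 is the divergent member of the family and is not known to act through LRP6 as DKK1 does. Dkk3 (ENSMUSG00000030772.7, chromosome 7, 111715224 to 111758264) had 52.4, 48.9 and 50.9 FPKM in the GFP-CCNB1IP1 libraries and 55.4, 56.1 and 54.3 FPKM in the GFP libraries. Every GFP-CCNB1IP1 library lay below every GFP library, by a small amount (log2 fold change -0.122, SE 0.048, 95% interval -0.23 to -0.012; limma, adjusted p = 0.399). Dkk2 was above 0.001 FPKM in 1 library and Dkk4 in 0, and the related Dkkl1 averaged 0.0234 FPKM.

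Notum, a secreted enzyme that removes the lipid from Wnt proteins, had 4.10, 4.07 and 3.79 FPKM in the GFP-CCNB1IP1 libraries and 2.82, 3.18 and 3.95 FPKM in the GFP libraries. A single GFP library, replicate 3, reached into the GFP-CCNB1IP1 range (log2 fold change 0.22, SE 0.114, 95% interval -0.050 to 0.48; limma, adjusted p = 0.524). Apcdd1, a membrane-bound inhibitor, was the highest member under the level for testing, at 0.970, 0.965 and 0.944 FPKM in GFP-CCNB1IP1 libraries and 0.905, 1.14 and 1.04 FPKM in the GFP libraries; Wnt5b, with a mean of 1.05 FPKM, was the lowest member tested. Sfrp4, the highest of the Sfrp genes, had 0.224, 0.549 and 0.530 FPKM in the GFP-CCNB1IP1 libraries and 0.360, 0.276 and 0.437 FPKM in the GFP libraries. Sfrp1, Sfrp2 and Sfrp5 averaged under 0.1 FPKM.

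R-spondins raise Wnt sensitivity: bound to an LGR receptor, they remove the ubiquitin ligases RNF43 and ZNRF3, which otherwise clear frizzleds from the surface. Of 4 R-spondin genes Rspo1 was tested, Rspo2 was above 0.001 FPKM in 1 library, and Rspo3 and Rspo4 were listed at 0 in every library. Rspo1 had 2.00, 1.91 and 2.43 FPKM in the GFP-CCNB1IP1 libraries and 2.90, 2.27 and 3.25 FPKM in the GFP libraries. The groups overlapped through GFP-CCNB1IP1 replicate 3 and GFP replicate 2 (log2 fold change -0.28, SE 0.132, 95% interval -0.59 to 0.021; limma, adjusted p = 0.466). Of the receptors, Lgr4 averaged 3.11 ± 0.437 FPKM in the GFP-CCNB1IP1 libraries and 3.06 ± 0.221 FPKM in the GFP libraries (SD, n = 3), and Lgr6 did not exceed 0.157 FPKM. Lgr5, a Wnt target and stem cell marker in the gut, had 2.48, 2.12 and 2.46 FPKM in the GFP-CCNB1IP1 libraries and 3.05, 2.82 and 2.42 FPKM in the GFP libraries. Its groups overlapped through GFP replicate 3 alone (log2 fold change -0.16, SE 0.109; limma, adjusted p = 0.619). Znrf3 was the ligase gene expressed, at 1.53, 1.37 and 1.38 FPKM in GFP-CCNB1IP1 libraries and 2.26, 1.62 and 1.69 FPKM in the GFP libraries. Its groups did not overlap, and GFP replicate 1 stood above the other GFP libraries (log2 fold change -0.23, SE 0.126, 95% interval -0.52 to 0.061; limma, adjusted p = 0.534). Rnf43 was listed at 0 in 4 of the 6 libraries and did not exceed 0.018 FPKM.

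**Figure D2:**
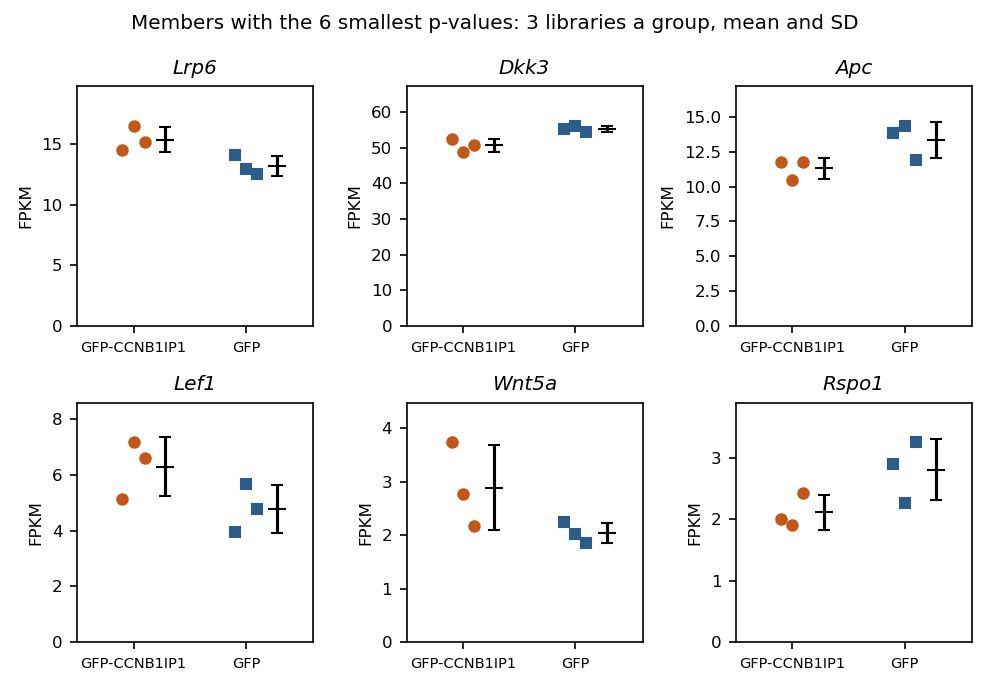
FPKM of the 6 members with the smallest p-values, 1 point per library, GFP-CCNB1IP1 on the left and GFP on the right of each panel, with the mean and SD beside them. Groups are apart for Lrp6, Dkk3 and Apc and overlap for Lef1, Wnt5a and Rspo1, and no adjusted p is below 0.357.

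Inside the cell, beta-catenin (Ctnnb1, ENSMUSG00000006932.18, chromosome 9, 120758282 to 120789573) had the highest level of all members. It had 99.0, 88.2 and 84.9 FPKM in the GFP-CCNB1IP1 libraries and 83.1, 94.5 and 80.8 FPKM in the GFP libraries, with overlap (log2 fold change 0.074, SE 0.079, 95% interval -0.108 to 0.26; limma, adjusted p = 0.763). Beta-catenin is controlled mainly at the protein level, which these data do not measure. Apc, a scaffold of the destruction complex, had 11.7, 10.5 and 11.8 FPKM in the GFP-CCNB1IP1 libraries and 13.8, 14.3 and 11.9 FPKM in the GFP libraries. The groups were apart, though GFP replicate 3 lay just above a pair of GFP-CCNB1IP1 libraries (log2 fold change -0.22, SE 0.087, 95% interval -0.42 to -0.018; limma, adjusted p = 0.405). Axin1, the other scaffold, averaged 16.4 ± 1.73 FPKM in the GFP-CCNB1IP1 libraries and 15.7 ± 0.539 FPKM in the GFP libraries (SD, n = 3; limma, adjusted p = 0.825). Axin2, the feedback target most often read as a sign of canonical signalling, had 1.67, 1.48 and 2.00 FPKM in the GFP-CCNB1IP1 libraries and 2.23, 2.11 and 1.53 FPKM in the GFP libraries. Its groups overlapped (log2 fold change -0.115, SE 0.139, 95% interval -0.44 to 0.21; limma, adjusted p = 0.797). Nkd1, a dishevelled-binding feedback inhibitor, had 0.0689, 0.182 and 0.0655 FPKM in the GFP-CCNB1IP1 libraries and 0.0343, 0.0641 and 0.215 FPKM in the GFP libraries, and Nkd2 was listed at 0.

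All 4 TCF/LEF genes were tested, led by Tcf7 at 6.22 to 7.70 FPKM and Lef1 at 3.94 to 7.15 FPKM, which overlapped. Lef1, an activating partner of beta-catenin and itself a target, had 5.11, 7.15 and 6.61 FPKM in the GFP-CCNB1IP1 libraries and 3.94, 5.66 and 4.76 FPKM in the GFP libraries. GFP-CCNB1IP1 replicate 1 lay below GFP replicate 2, so the groups overlapped (log2 fold change 0.33, SE 0.145, 95% interval -0.0014 to 0.67; limma, adjusted p = 0.441). Tcf7l1, which acts mostly as a repressor, had 1.21, 1.13 and 1.24 FPKM in the GFP-CCNB1IP1 libraries and 1.40, 1.71 and 1.24 FPKM in the GFP libraries. The groups were barely apart, since replicate 3 of each had almost the same value (limma, adjusted p = 0.674). Tcf7l2 averaged 2.81 ± 0.442 FPKM in the GFP-CCNB1IP1 libraries and 2.34 ± 0.442 FPKM in the GFP libraries, and Tcf7 averaged 6.99 ± 0.737 and 6.77 ± 0.0698 FPKM in the same order (SD, n = 3 each).

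Counted over the 33 tested members, 15 had a positive and 18 a negative log2 fold change, with a median of -0.025 against 0.0037 over all 13231 genes tested. By limma with adjustment over all genes, 0 members were called, against 1 of the 13231 genes. At an unadjusted p under 0.05 there were 3 members, Lrp6 higher and Dkk3 and Apc lower in the GFP-CCNB1IP1 libraries, which is 9.09% of members against 11.4% of all genes. Without GFP-CCNB1IP1 replicate 2, the shallowest library, that count was 0, beside 10.4% of all genes. It was 5 without GFP-CCNB1IP1 replicate 3 (9.32% of all genes) and 1 without GFP replicate 1 (9.57%). The groups did not overlap for 7 members, or 21.2%, against 17.6% of all genes. These were 1 higher member, Lrp6, against a background of 8.7%, and 6 lower members (Dkk3, Apc, Znrf3, Fzd3, Tcf7l1 and Fzd2), or 18.2%, against a background of 8.9%. Leaving a library out raises this count by construction: it was 14 without GFP replicate 2, where 31.8% of all genes did not overlap, 12 without GFP-CCNB1IP1 replicate 3 (26.6%), and 11 without GFP-CCNB1IP1 replicate 2 (29%) or GFP replicate 3 (25.6%). In the main fit no tested member had a log2 fold change beyond 0.5 in size, against 1.62% of all genes. With only 33 members, a count of 0 does not set them apart from that share. The limit also depends on the pseudocount of 1: with 0.1 the log2 fold change was -0.57 for Wnt11 and -0.52 for Wnt6.

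**Figure D3:**
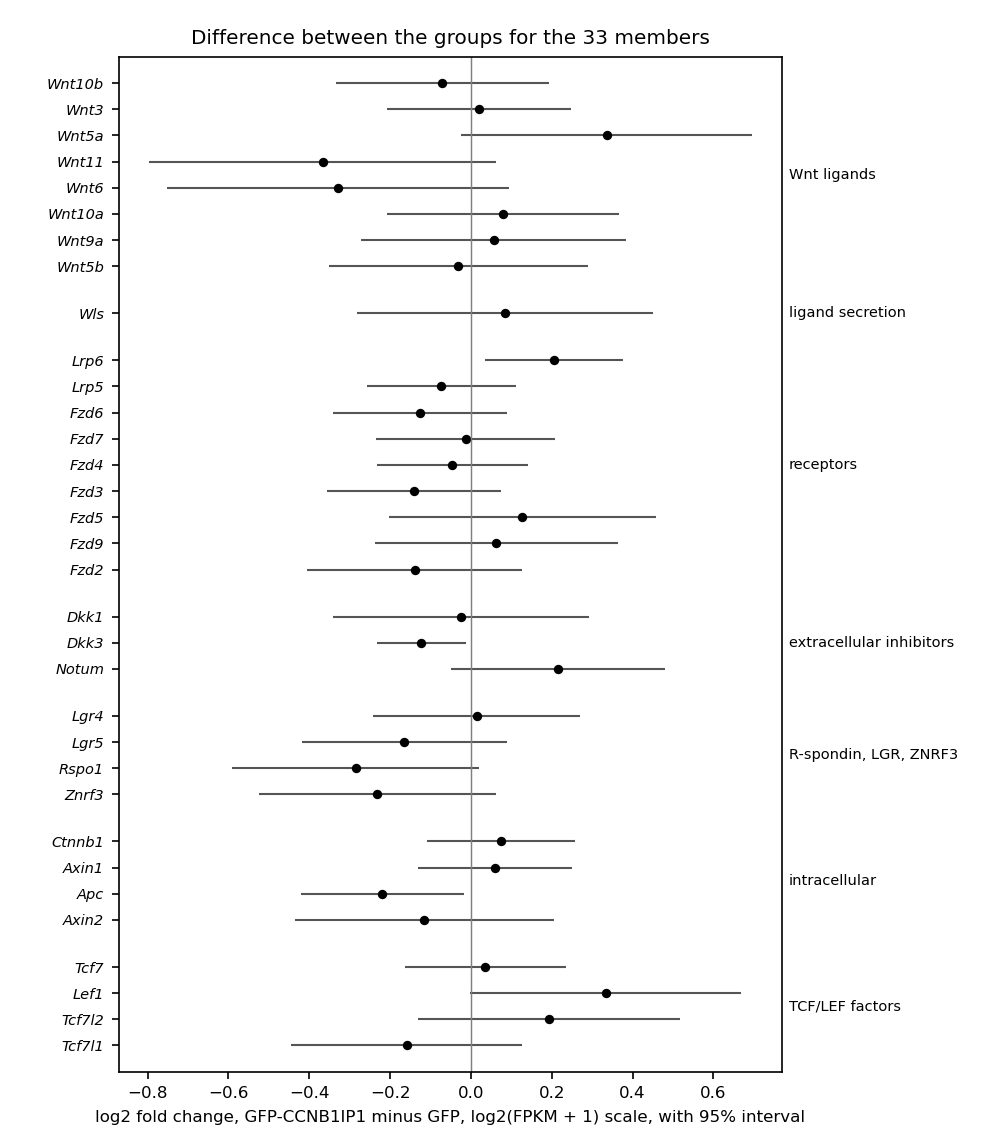
Log2 fold change of the 33 tested members, GFP-CCNB1IP1 minus GFP on the log2(FPKM + 1) scale, as points with 95% intervals from limma that are not adjusted for the number of genes. The intervals of Lrp6, Dkk3 and Apc leave out 0, and the widest belong to low ligands such as Wnt11, from -0.80 to 0.062.

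Of the 30 members under the level for testing, 11 were at 0.001 FPKM or more in every library, 13 in 1 to 5 libraries, and 6 in none. Those 6 were Wnt3a, Wnt8a, Rspo3, Rspo4, Dkk4 and Nkd2. Wnt1, the next highest of the low members after Apcdd1, had 0.707, 0.641 and 0.845 FPKM in the GFP-CCNB1IP1 libraries and 0.784, 1.06 and 0.778 FPKM in the GFP libraries, with overlap. Wnt2b, another canonical ligand, had 0.579, 0.486 and 0.551 FPKM in the GFP-CCNB1IP1 libraries and 0.562, 0.527 and 0.485 FPKM in the GFP libraries, again with overlap. The other 9 low ligands (Wnt2, Wnt3a, Wnt4, Wnt7a, Wnt7b, Wnt8a, Wnt8b, Wnt9b and Wnt16) averaged 0.173 FPKM or less. When limma was run without the filter, on 26841 genes, 24 of the low members could be fitted and 0 of them reached an adjusted p, or an unadjusted p, under 0.05. A gene listed at 0 was not detectable at the depth of these libraries.

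The members differed in how closely replicates matched. Over the 33 tested members, the coefficient of variation (CV) between libraries within groups had a median of 12.7%. The deposited confidence intervals implied a median of 9.26%, which is not counting error alone, since isoforms that share reads widen the intervals. For Axin1, at 14.5 to 17.9 FPKM, they implied from 98.2 to 318.7 fragments a library. For 9 members the CV between libraries was below the implied one, among them Rspo1, Tcf7l1 and Lgr5, whose spread is no larger than the intervals allow. For 6 members it was more than 2 times the implied one: Dkk1, Ctnnb1, Fzd7, Fzd5, Lrp5 and Wnt10b. Dkk1 was the farthest, with 14.8% between libraries and 1.97% implied. The low value of GFP replicate 2 added to this spread but was not all of it: the GFP-CCNB1IP1 libraries alone had 52.7 ± 4.10 FPKM (SD, n = 3). Dkk3, at nearly the same level, had 2.74% between libraries and 1.66% implied. The locus of Wnt5b overlaps that of Fbxl14, which averaged 13.3 FPKM, and since strand was not stated the reads of this pair may not be separable; the loci of the other measured members overlap no gene with a mean of 1 FPKM or more.

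**Figure D4:**
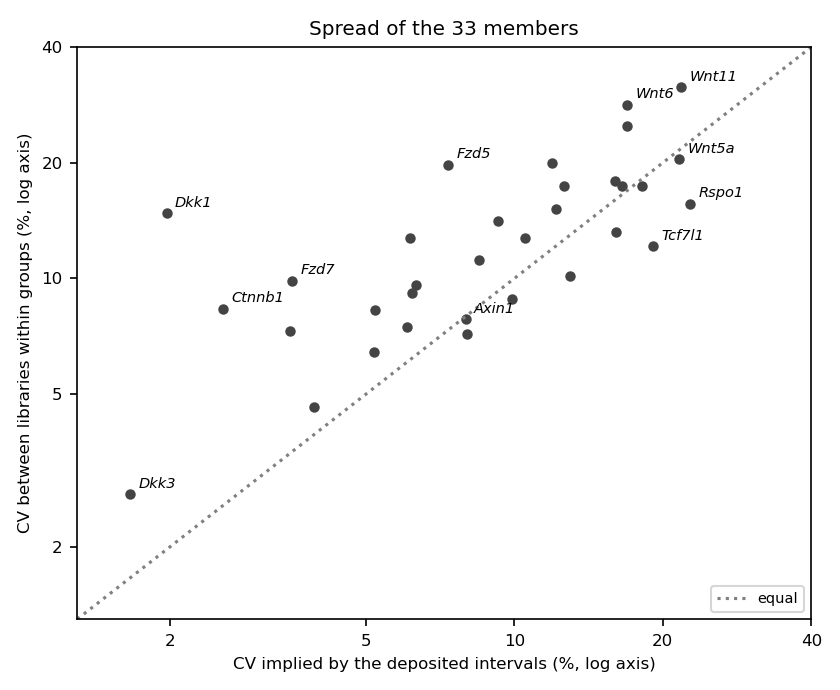
CV between libraries within groups (percent, log axis) against the CV implied by the deposited confidence intervals (percent, log axis) for the 33 tested members, with a dotted line where they are equal. Dkk1 stands farthest above the line, at 14.8% against 1.97%, and Rspo1 and Tcf7l1 lie below it.

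The rest of the pathway was read from a list of 94 other genes, of which 70 were tested. None passed limma's test after adjustment over all genes; 3 were higher and 6 lower at an unadjusted p under 0.05, or 12.9% against 11.4% of all genes, and the groups did not overlap for 12, or 17.1% against 17.6%. The list's median log2 fold change was -0.0045. In the list of destruction complex and dishevelled genes, 2 of 22 tested were higher and 1 lower at an unadjusted p under 0.05. Ppp2r5a, a regulatory subunit of protein phosphatase 2A, averaged 51.3 ± 1.11 FPKM in the GFP-CCNB1IP1 libraries and 45.1 ± 2.00 FPKM in the GFP libraries (SD, n = 3; log2 fold change 0.18, SE 0.051; limma, adjusted p = 0.283). All GFP-CCNB1IP1 libraries were above all GFP libraries. The kinase gene Gsk3b, whose product phosphorylates beta-catenin, averaged 34.5 ± 0.496 FPKM in the GFP-CCNB1IP1 libraries and 31.9 ± 0.843 FPKM in the GFP libraries (limma, adjusted p = 0.435). Dvl1, one of the dishevelled genes that relay the frizzled signal, averaged 42.5 ± 2.29 FPKM in the GFP-CCNB1IP1 libraries and 47.1 ± 0.731 FPKM in the GFP libraries (limma, adjusted p = 0.369; SD, n = 3 for each of these means).

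Among nuclear partners and cadherin-catenin genes, 0 of 19 were higher and 4 lower at an unadjusted p under 0.05, beside backgrounds of 5.59% higher and 5.77% lower. Tle3, a Groucho-family corepressor of TCF factors, had 28.3, 28.4 and 30.2 FPKM in the GFP-CCNB1IP1 libraries and 33.1, 33.6 and 34.8 FPKM in the GFP libraries. The groups were apart, and this was the smallest p-value in the list of 70 (log2 fold change -0.22, SE 0.052, 95% interval -0.34 to -0.098; limma, adjusted p = 0.249). Its relative Tle2 had 3.55, 4.05 and 3.46 FPKM in the GFP-CCNB1IP1 libraries and 5.80, 5.23 and 4.01 FPKM in the GFP libraries, overlapping through GFP replicate 3 (limma, adjusted p = 0.363). The corepressor gene Ctbp2 averaged 9.68 ± 0.312 FPKM in the GFP-CCNB1IP1 libraries and 10.9 ± 0.227 FPKM in the GFP libraries (SD, n = 3; limma, adjusted p = 0.407). Of 17 planar polarity and calcium branch genes, 0 were higher and 1 was lower at an unadjusted p under 0.05. That was Celsr2, an atypical cadherin of planar polarity, at 8.03, 7.47 and 7.18 FPKM in GFP-CCNB1IP1 libraries and 8.17, 9.66 and 9.36 FPKM in the GFP libraries, without overlap (limma, adjusted p = 0.364). The polarity gene Prickle1 averaged 0.990 ± 0.282 FPKM in the GFP-CCNB1IP1 libraries and 1.32 ± 0.141 FPKM in the GFP libraries, and the GTPase gene Rhoa averaged 94.1 ± 2.84 and 88.1 ± 4.66 FPKM in the same order (SD, n = 3 each; limma, adjusted p = 0.608 and 0.545).

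Of 8 tested coreceptors and surface proteoglycans, 1 was higher at an unadjusted p under 0.05, Atp6ap2, which links LRP6 to the vacuolar proton pump. It averaged 30.2 ± 0.999 FPKM in the GFP-CCNB1IP1 libraries and 27.5 ± 0.718 FPKM in the GFP libraries, without overlap (SD, n = 3; limma, adjusted p = 0.409). The syndecan genes Sdc4 and Sdc1 averaged 2.67 ± 0.141 and 23.8 ± 1.36 FPKM in the GFP-CCNB1IP1 libraries and 2.00 ± 0.498 and 25.4 ± 0.687 FPKM in the GFP libraries (SD, n = 3 each; limma, adjusted p = 0.453 and 0.615). The 4 tested genes listed as inhibitors or other modulators, none of them a member, had adjusted p-values of 0.702 or more by limma. Their log2 fold changes were 0.122 for Tpbg, 0.045 for Draxin, 0.0023 for Cthrc1 and 0.017 for Bambi. The sign of Bambi changed with the library left out. The sign of Myc did so too. Of 26 target genes of beta-catenin and TCF/LEF that are no members, 10 were tested, and 16, among them Sp5, Sp8 and Tnfrsf19 at 0 in every library, were not. Ccnd1, the cyclin D1 gene, had 42.9, 38.2 and 41.4 FPKM in the GFP-CCNB1IP1 libraries and 36.0, 38.3 and 33.8 FPKM in the GFP libraries, overlapping through GFP replicate 2 (log2 fold change 0.18, SE 0.067; limma, adjusted p = 0.393). Myc averaged 103.1 ± 5.32 FPKM in the GFP-CCNB1IP1 libraries and 102.3 ± 10.3 FPKM in the GFP libraries (SD, n = 3; limma, adjusted p = 0.966). Plaur, the urokinase receptor gene, averaged 43.9 ± 3.85 FPKM in the GFP-CCNB1IP1 libraries and 37.3 ± 3.02 FPKM in the GFP libraries, and Birc5, the survivin gene, which also moves with cell division, averaged 31.3 ± 2.65 and 36.8 ± 3.63 FPKM in the same order (SD, n = 3 each; limma, adjusted p = 0.354 and 0.401). Among the 10 tested targets, Ccnd1 and Plaur were higher and Birc5 lower at an unadjusted p under 0.05, or 30% against 11.4% of all genes, and 0 passed limma's test after adjustment over all genes. The groups did not overlap for 2 targets, Plaur and Birc5, or 20% against 17.6% of all genes. Of the log2 fold changes 6 were positive and 4 negative, with a median of 0.017. In bulk RNA, fewer cells of a type and less RNA per cell cannot be told apart, and this holds for every level given here.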

How the data were processed

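The authors deposited FPKM per gene with the bounds of a confidence interval, in 1 table per library, per the file headers. The submitters' processing notes name HISAT2 and Cufflinks and no version of either; genome build and strand setting: not given in the sources used here. Each table had 53537 rows; 38 identifiers on several rows were summed. Locus starts, taken as 0-based, are printed as 1-based positions. The values were used as deposited. Genes with a mean of at least 1 FPKM were tested on log2(FPKM + 1), which understates the change of low genes, with limma 3.58.1 in R 4.3.3, a mean-variance trend and no block; p-values were adjusted over all 13231 genes by the Benjamini-Hochberg method, with calls under 0.05. The number of fragments implied by an interval is (FPKM / SE) squared, with the SE as the distance to the upper bound divided by 2; isoforms that share reads lower this estimate. Relative depth used 2244 genes with 5 to 50 implied fragments in every library.

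Members and lists were chosen with earlier results of these data known. Every member with a mean of at least 1 FPKM was to be named; full statistics were for the 12 smallest p-values and for Ctnnb1, Axin2, Lef1, Nkd1, Znrf3, Rnf43, Apcdd1, Lgr5, Lrp6, Porcn and Wls, and in the other lists for up to 3 genes each with Ccnd1 and Myc. H2-K1, Rhox5 and Fbxl14 were chosen after their values were seen. Alternatives were a pseudocount of 0.1 or of 5, testing without a filter or from a mean of 5 FPKM, median-of-ratios scaling, a replicate block, limma without the trend, and each library left out. The fit was also run on simulated data with changes of 0.5 or more on the log2 scale, beyond those of any tested member in the main fit. Its outcome is not given here and does not bear on changes as small as those of the members.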

Additional observations from a re-analysis of the deposited data

How the results depend on the processing

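The count of members called was 0, and so was that of other pathway genes, in all 13 alternatives, and no named gene passed in any. The 1 gene called over all genes, which is no member, became 0 with a pseudocount of 5, without the filter, in limma without the trend and with the replicate number as a block; leaving out single libraries gave 0 to 4. Members at an unadjusted p under 0.05 numbered 0 to 5 with single libraries left out, beside 8.47 to 12.5% of all genes. They numbered 4 with the replicate block (10.5% of all genes), a pseudocount of 0.1 (11.3%) and limma without the trend (10.9%). These were not the same members. With the block they were Lrp6, Lef1, Wnt5a and Rspo1, while Dkk3 and Apc dropped out. The pseudocount of 0.1 added Lef1 to Lrp6, Dkk3 and Apc. Without the trend they were Lrp6, Apc, Rspo1 and Znrf3. With a mean of at least 5 FPKM, 3 of the 12 members tested had an unadjusted p under 0.05 by limma, against 12.2% of all genes. These were again Lrp6, Dkk3 and Apc. Members without overlap numbered 3 with a mean of at least 5 FPKM, where 12 members are tested and 18.3% of all genes did not overlap. With single libraries left out they numbered 8 to 14, beside 25.6 to 31.8% of all genes. The members' median log2 fold change stayed from -0.033 to -0.012. Of 15 named members 14 kept their direction in every alternative run; the exception was Wls, from -0.033 to 0.193 with single libraries left out. Among 19 named other genes, Bambi (-0.019 to 0.074) and Myc (-0.069 to 0.067) changed sign likewise. Same-numbered libraries of the 2 groups did not deviate together (correlations of -0.011 to 0.023 across genes), so the numbers were not taken to pair them; the block changed no call of a member. Some low members had few implied fragments a library, with 11.7 to 38.1 for Wnt11 and 15.6 to 22.0 for Rspo1. This number did not follow the level alone, since Fzd2, at a mean of 1.38 FPKM, had 71.5 to 137.0.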
